A study of Mus musculus with 8 samples.

Results

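The transcription factor p53 and genes it is known to activate were followed in mouse liver made to carry a virus for ATF3. The set held 33 genes, Trp53 (the p53 gene) and 32 genes named from textbook knowledge as targets or close regulators of p53. The choice was made with earlier results of these data known. Each of the 33 had a normalized count of at least 10 in at least 4 libraries, a filter that 13301 of the 24972 listed genes passed. The set was divided into p53 and its regulators (4 genes), growth arrest (8), cell death (13), DNA repair and synthesis (5) and metabolism (3).

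Stranded total RNA libraries were made from liver of C57BL/6J mice aged 18 weeks. The mice had received an adeno-associated virus of serotype 8 into a vein at 10 weeks of age, 8 weeks earlier. In the ATF3 group the virus was AAV8-ALB-ATF3 (4 libraries), and in the Null group the empty AAV8-ALB-Null (4 libraries), so both groups carried a virus. ALB was taken as the albumin promoter, which is active in hepatocytes, whereas the RNA came from whole liver. The design text gives 8 mice per group, the labels give no sex, and how mice map to libraries is not stated. The p-values therefore speak for the spread among libraries, which may be technical. In bulk RNA, fewer cells of a type and less RNA per cell cannot be told apart.

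p53 is a stress sensor that is made all the time and held low by the ubiquitin ligase Mdm2, whose own gene p53 switches on. When DNA is damaged or growth signals are abnormal, p53 accumulates and raises genes that stop the cell cycle, trigger cell death, repair DNA or change metabolism. In liver, p53 and its target p21 are known for restraining the division of hepatocytes after injury. ATF3 is a stress-induced transcription factor of the ATF/CREB family, and its protein is reported to bind p53 and to hinder the tagging of p53 by Mdm2.

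Column sums of the normalized counts lay between 23.9 M and 28.4 M, and depth was roughly estimated at 17.2 M to 48.5 M reads per library. Atf3 averaged 6318 ± 680.5 normalized counts in ATF3 livers and 22.9 ± 1.92 in Null livers (SD, n = 4 each), so each library fitted its label. Null 4 correlated least with its own group across genes (mean r 0.967, against 0.972 to 0.980 for the other Null libraries and 0.986 to 0.987 within ATF3). Calls and signs of the 33 genes that change without Null 4 are therefore given both ways. The 5 listed hepatocyte markers (Alb, Ttr, Apob, Cps1 and Hnf4a) summed to between 2998430 and 3552600 normalized counts in ATF3 livers and between 2019190 and 3256640 in Null livers, and among them Ttr rose by 1.26 and Cps1 fell by 0.58.

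Of the 33 genes, 12 (36.4%) rose and 0 fell in ATF3 livers. Among all 13301 tested genes, 11.4% rose and 9.82% fell (21.2% in either direction) by the same test, limma on log2(normalized count + 1) with a Benjamini-Hochberg adjusted p under 0.05. The rises lay between 0.42 and 2.22 on this log2 scale, which is 1.34-fold to 4.67-fold, and in all 12 genes every ATF3 library lay above every Null library. Groups separated upward in 13 of 33 members (39.4%), against 13.7% of all tested genes, and downward in 2 members, against 12.6%. A called rise of at least 1 on the log2 scale was found in 6 members, against 3.83% of all genes. The median change was 0.35 over the members and 0.01 over all genes. At an unadjusted p under 0.05, 16 of the 33 were higher and 2 (Gadd45a and Xpc) lower, against 17.6% and 16.3% of all genes. The members were chosen with earlier results of these data known, so these shares describe the set and test nothing.

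**Figure D1:**
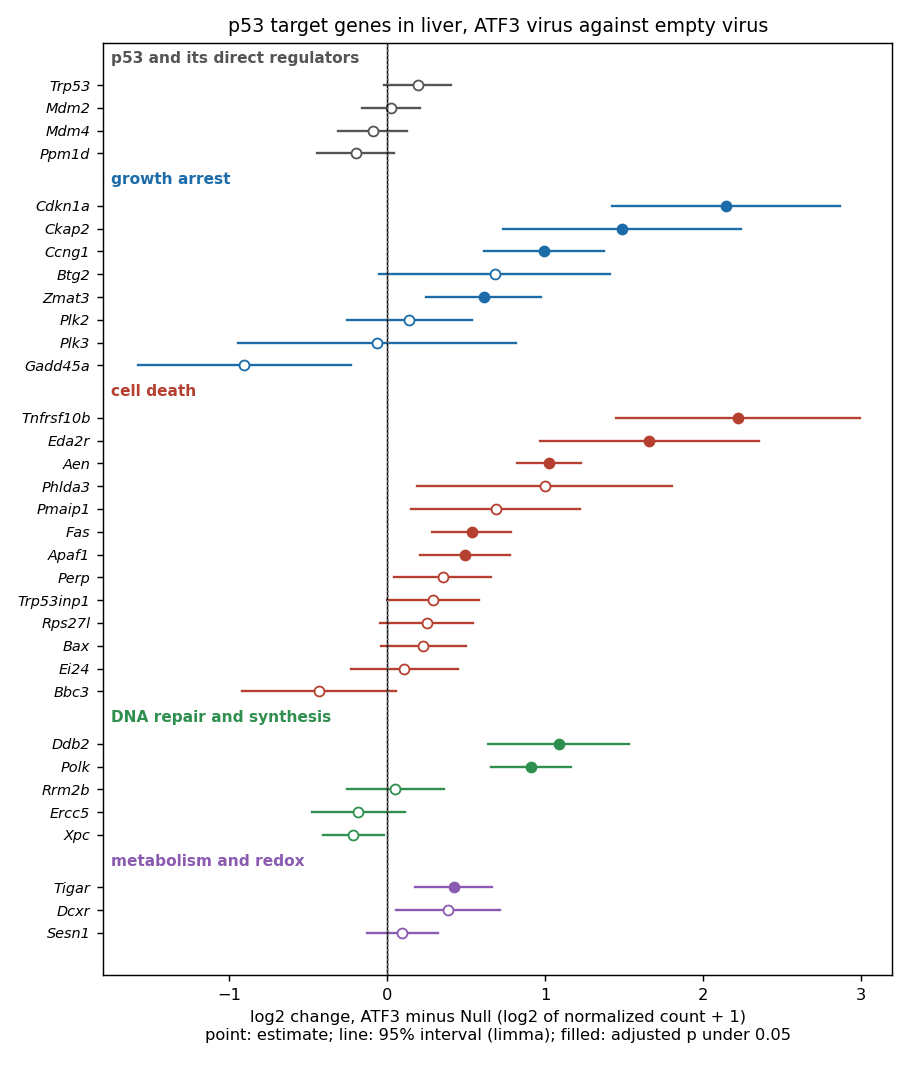
Log2 change (ATF3 minus Null, on the log2(normalized count + 1) scale) of the 33 genes with its 95% interval from limma, by class; filled points passed an adjusted p under 0.05 and the dotted line is the median of all tested genes. The 12 filled points lie between 0.42 and 2.22, while p53 and its regulators lie between -0.20 and 0.19.

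Trp53 and the 3 regulators counted among the 33 genes did not pass. Trp53 had 391, 409, 395 and 357 normalized counts in ATF3 1 to 4, against 323, 340.1, 369 and 324 in Null 1 to 4. The groups overlapped, since 1 Null library lay above the lowest ATF3 library, and the log2 change was 0.19 (SE 0.10, limma adjusted p = 0.182). Mdm2, which both tags p53 for breakdown and is induced by it, had 728, 647, 697 and 708 normalized counts in ATF3 1 to 4 and 706, 694, 675 and 663 in Null 1 to 4. These ranges lie over each other, and the log2 change was 0.02 with a 95% interval of -0.16 to 0.21, so its interval holds no change as large as that of any of the 12 called genes. Mdm4, a relative of Mdm2 that blocks the activation domain of p53, averaged 1449 ± 133 in ATF3 livers and 1544 ± 128 in Null livers (SD, n = 4 each; adjusted p = 0.553 by limma). Ppm1d, the gene of the p53-induced phosphatase Wip1 that damps the pathway, had 200.0, 221, 220.1 and 206 in ATF3 1 to 4 and 278, 225, 228 and 245 in Null 1 to 4. Every ATF3 library was lower there, but the log2 change of -0.20 (SE 0.11) did not pass (limma adjusted p = 0.231).

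Sequence before the annotated starts was read from the RefSeq promoter table (build GRCm38.p6, the assembly of mm10), which held windows of 250 bases before to 50 after a start for 25 of the 33 genes. A consensus p53 half-site of 10 bases was found on either strand in 13 of these 25 genes, against 9.55% of all 27025 genes in the table. A pair of half-sites with at most 13 bases between them was found in 1 member, Cdkn1a, and in 20 genes (0.0740%) of the table. Of the 9 genes called higher that had a window, 5 held a half-site (Cdkn1a, Ccng1, Ckap2, Aen and Polk), and among the 16 others 8 did. The cyclic AMP element TGACGTCA, to which ATF3 dimers can bind, was in the window of Ppm1d, Btg2 and Plk2, none of them called, against 2.03% of all genes. The AP-1 element TGANTCA was in that of Mdm4 and Fas, against 8.97% of all genes, and TGATGNAA, the C/EBP-ATF composite, in that of Polk, against 4.51%. Both strands were searched, the half-sites counted singly include those in the pair, and no other matches overlapped in a member. A match in these letters shows no binding, and windows near starts leave out distal and intronic sites.

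The stretches below show matches, in capitals, in genes that rose and in genes that did not, each 5′ to 3′ on the strand of its gene.
Cdkn1a (called higher, chr17:29090859-29090978, plus strand, pair of p53 half-sites): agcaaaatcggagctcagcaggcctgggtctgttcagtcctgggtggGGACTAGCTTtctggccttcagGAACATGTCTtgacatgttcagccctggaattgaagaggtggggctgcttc
Ccng1 (called higher, chr11:40755437-40755496, minus strand, p53 half-site): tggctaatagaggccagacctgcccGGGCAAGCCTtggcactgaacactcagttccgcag
Ckap2 (called higher, chr8:22185988-22186047, minus strand, p53 half-site): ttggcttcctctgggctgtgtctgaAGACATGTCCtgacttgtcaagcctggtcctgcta
Fas (called higher, chr19:34290421-34290480, plus strand, AP-1 element): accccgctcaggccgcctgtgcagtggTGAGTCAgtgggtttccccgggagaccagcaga
Mdm2 (not called, chr10:117710910-117710969, minus strand, p53 half-site): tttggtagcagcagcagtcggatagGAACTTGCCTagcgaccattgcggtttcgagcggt
Trp53 (not called, chr11:69580259-69580318, plus strand, p53 half-site): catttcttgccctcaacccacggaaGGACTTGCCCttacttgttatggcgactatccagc
Btg2 (not called, chr1:134079288-134079347, minus strand, cyclic AMP element): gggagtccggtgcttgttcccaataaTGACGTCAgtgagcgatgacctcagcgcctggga
Plk2 (not called, chr13:110394956-110395015, plus strand, cyclic AMP element): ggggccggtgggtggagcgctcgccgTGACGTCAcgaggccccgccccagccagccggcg

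In GENCODE vM21 (mm10), Cdkn1a spans positions 29090976 to 29100727 of chromosome 17, Aen 78895854 to 78911209 of chromosome 7, Tnfrsf10b 69767472 to 69784411 of chromosome 14 and Eda2r 97333840 to 97377216 of chromosome X. The table holds more than 1 window for Cdkn1a, and the stretch shown comes from the one at the coding transcript that starts at 29090979. Other coding transcripts in GENCODE vM21 start at 29093769, 29093781 and 29097900. Capitals mark exact matches to the consensus only. In Cdkn1a, the 10 bases right after GAACATGTCT miss the half-site consensus at their opening base alone, so they were neither marked nor counted. For Mdm2 the window lies before the gene's outer start, and the internal promoter that p53 is known to use is not in it.

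Among the 8 genes grouped under growth arrest, 4 rose (against 11.4% of all genes) and 0 fell (against 9.82%). Of the 4, Ckap2 encodes a protein of dividing cells rather than an arrest factor. Cdkn1a, which encodes the cyclin-dependent kinase inhibitor p21, had 94.5, 53.8, 139 and 146 normalized counts in ATF3 1 to 4, against 20.4, 28.6, 25.9 and 15.6 in Null 1 to 4. The lowest ATF3 library, ATF3 2, was still above the highest Null library, and the log2 change was 2.15 (SE 0.32, limma adjusted p = 0.00115). Per length it stayed a low transcript, at 3.66 ± 1.47 TPM in ATF3 livers and 0.641 ± 0.179 TPM in Null livers (SD, n = 4 each, TPM taken without Mir6236). Ccng1, the gene of cyclin G1, which recruits a phosphatase to Mdm2, had 2158, 2971, 2815 and 3038 in ATF3 1 to 4 and 1037, 1396, 1320.5 and 1827 in Null 1 to 4. It was 1.99-fold higher, with a log2 change of 0.99 (SE 0.17, limma adjusted p = 0.00247), and at 57.5 ± 5.87 TPM in ATF3 livers and 24.3 ± 4.10 TPM in Null livers it was far more abundant than Cdkn1a.

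Zmat3, an RNA-binding zinc finger gene, had 462, 324, 299 and 314 normalized counts in ATF3 1 to 4 and 268, 188, 242 and 210.3 in Null 1 to 4. ATF3 1 stood above the other ATF3 libraries, and the log2 change was 0.61 (SE 0.16, limma adjusted p = 0.0244). The Zmat3 call was lost without Null 2 (adjusted p = 0.0662 by limma). Ckap2, whose product is a spindle protein, had 50.8, 98.9, 35.6 and 63.4 in ATF3 1 to 4 and 16.9, 21.6, 13.8 and 31.6 in Null 1 to 4, a log2 change of 1.49 (SE 0.34, limma adjusted p = 0.0112). ATF3 2, the highest library for Ckap2, was the lowest ATF3 library for Cdkn1a, and ATF3 3, the lowest for Ckap2, was among the high ones for Cdkn1a.

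The other 4 arrest genes did not pass. Gadd45a, whose product binds PCNA and a stress kinase, had 71.9, 52.4, 81.3 and 60.0 normalized counts in ATF3 1 to 4 and 156, 186, 127 and 63.1 in Null 1 to 4. Of the Null libraries, Null 4 alone lay within the ATF3 range. The log2 change was -0.91 (SE 0.30, limma adjusted p = 0.0591), and without Null 4 it was -1.22 (SE 0.19, adjusted p = 0.00117). An antisense transcript, E230016M11Rik, covers 19.1% of the exonic bases of Gadd45a and fell by 0.90 (SE 0.25, limma adjusted p = 0.0271). The kit marks strand, but the sources used here do not say whether counting used it, so reads of these overlapping genes may not be told apart. Btg2, an antiproliferative gene whose product acts on mRNA deadenylation, averaged 343 ± 79.8 in ATF3 livers and 231 ± 106 in Null livers (SD, n = 4 each). Its lowest value, 100.3, was in Null 4. The Polo-like kinase gene Plk2 averaged 563 ± 118 in ATF3 livers and 509.9 ± 104 in Null livers (SD, n = 4 each). Plk3 held 733, 1709.8, 609 and 773 in ATF3 1 to 4 and 616, 2011, 751 and 763 in Null 1 to 4. In each group 1 library thus stood apart from the other 3, and the 95% interval of the Plk3 log2 change, -0.95 to 0.81, is wide.

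**Figure D2:**
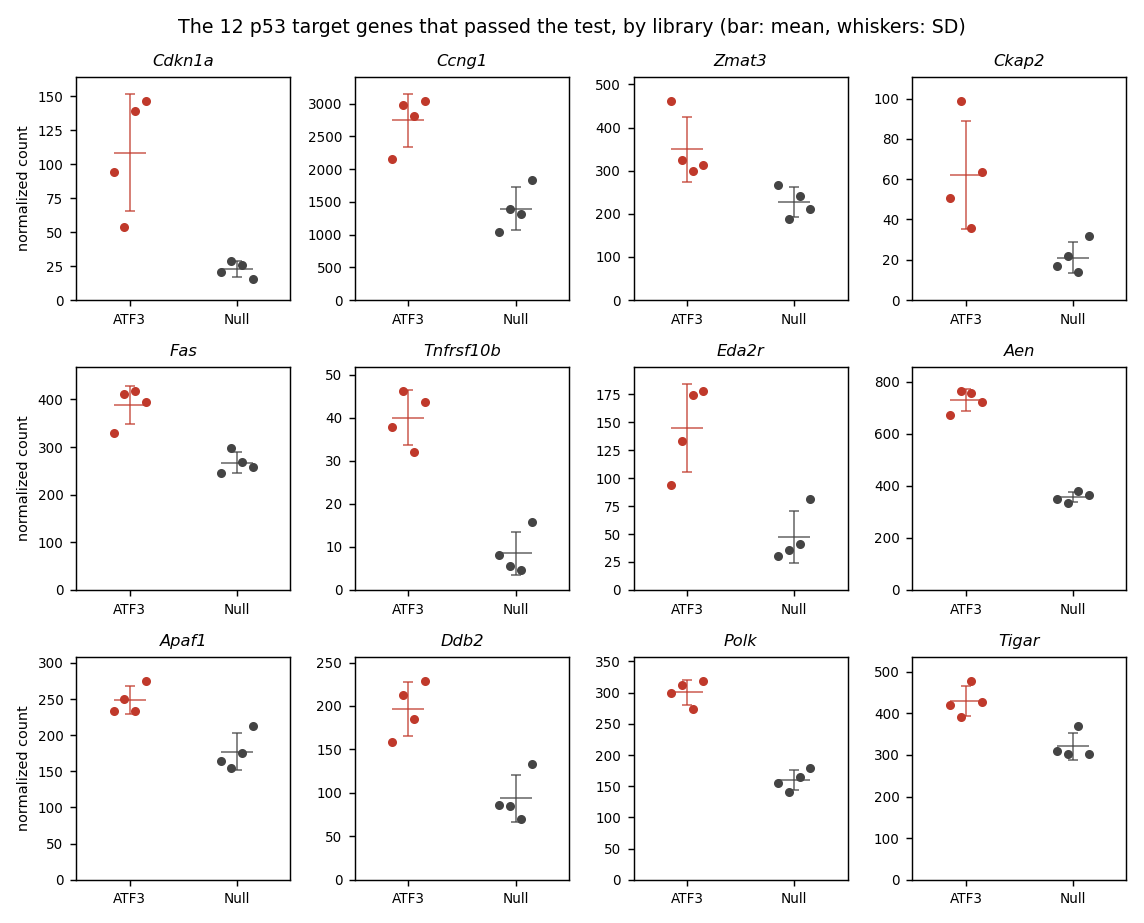
Normalized counts by library of the 12 genes that passed, with ATF3 livers left and Null livers right; each point is a library, the horizontal bar the mean and the whiskers the SD (n = 4 each), and every axis starts at 0. No Null point reaches the lowest ATF3 point in any panel, and Null 4 (the rightmost point) is the highest Null library in 7 of the 12.

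Of the 13 cell death genes, 5 rose (against 11.4% of all genes) and 0 fell (against 9.82%). The 5 include 3 receptor genes of the TNF receptor family. Tnfrsf10b, the mouse receptor for the death ligand TRAIL, had 37.9, 46.2, 32.0 and 43.8 normalized counts in ATF3 1 to 4 and 8.23, 5.65, 4.59 and 15.7 in Null 1 to 4. Its log2 change of 2.22 (SE 0.35, limma adjusted p = 0.00141) was the largest of the 33 on this scale, but 3 of its 4 Null values were under 10, so it met the filter through the ATF3 libraries. With 10 added in place of 1, it was 1.46, below Cdkn1a (1.79) and Eda2r (1.48). It was also the least abundant member per length, at 0.787 ± 0.111 TPM in ATF3 livers and 0.138 ± 0.0723 TPM in Null livers (SD, n = 4 each). Eda2r, a receptor gene for the ligand EDA-A2 on the X chromosome, had 93.6, 133, 174 and 178 normalized counts in ATF3 1 to 4 and 30.7, 35.5, 40.8 and 81.3 in Null 1 to 4. Null 4 came close to ATF3 1 here, and the log2 change was 1.66 (SE 0.31, limma adjusted p = 0.00396). Fas, the receptor for Fas ligand and an established trigger of hepatocyte death, had 330.3, 412, 418 and 394 in ATF3 1 to 4 and 245, 298, 268 and 258 in Null 1 to 4, a log2 change of 0.54 (SE 0.11, limma adjusted p = 0.00782).

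Aen, which encodes a nuclease that acts in apoptosis, showed the smallest spread of the genes that rose. It had 672, 764, 756 and 724 normalized counts in ATF3 1 to 4 and 349, 334, 380.5 and 366 in Null 1 to 4. Its coefficient of variation was 5.73% in ATF3 livers and 5.69% in Null livers, and the log2 change was 1.03 (SE 0.09, limma adjusted p = 3.64e-05). Apaf1, the scaffold of the apoptosome, had 234, 250.4, 234 and 275 in ATF3 1 to 4 and 164, 155, 176 and 213 in Null 1 to 4. Its log2 change was 0.49 (SE 0.13, limma adjusted p = 0.0203), and the call was lost without ATF3 2, ATF3 4 or Null 2 (adjusted p from 0.0533 to 0.0715).

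The members of the mitochondrial death pathway upstream of Apaf1 did not pass. The pore-forming Bax averaged 246 ± 27.3 normalized counts in ATF3 livers and 209.6 ± 17.3 in Null livers (SD, n = 4 each; limma adjusted p = 0.211). Bbc3, the gene of the Bax activator PUMA, had 120.0, 114, 91.4 and 71.7 in ATF3 1 to 4 and 188, 119, 129.7 and 103 in Null 1 to 4. Its log2 change was -0.43 (SE 0.22, limma adjusted p = 0.200), and the groups overlapped. Pmaip1, which encodes the related protein NOXA, had 37.9, 26.9, 28.3 and 25.6 in ATF3 1 to 4 and 22.0, 13.1, 16.9 and 20.6 in Null 1 to 4. All its ATF3 values lay above the Null values, yet the log2 change of 0.69 (SE 0.24) missed the threshold (limma adjusted p = 0.0696).

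The remaining 5 cell death genes had log2 changes of 0.11 to 0.998 that did not pass. Phlda3, an inhibitor of the survival kinase Akt, had 24.9, 41.4, 33.2 and 26.0 normalized counts in ATF3 1 to 4 and 14.2, 15.5, 28.7 and 7.53 in Null 1 to 4, with Null 3 inside the ATF3 range. Its log2 change was 0.998 (SE 0.36, limma adjusted p = 0.0784), and it passed without Null 3 (adjusted p = 0.0223). Perp, a membrane protein gene of desmosomes, averaged 2661 ± 406 in ATF3 livers and 2085 ± 319.7 in Null livers, and Trp53inp1, a nuclear stress protein gene, 2636 ± 317 in ATF3 livers and 2164 ± 327 in Null livers (SD, n = 4 each). Both passed without Null 4 (log2 change 0.45, adjusted p = 0.0206, and 0.37, adjusted p = 0.0458, by limma). Ei24, an endoplasmic reticulum protein gene, averaged 3649 ± 381 in ATF3 livers and 3429 ± 675 in Null livers (SD, n = 4 each), and its log2 change of 0.11 turned to -0.0493 without Null 4. Rps27l, a ribosomal protein gene whose product binds Mdm2, averaged 2867 ± 462 in ATF3 livers and 2394 ± 235 in Null livers (SD, n = 4 each). Rps27l was the most abundant member per length, at 654 ± 68.9 TPM in ATF3 livers and 458 ± 22.2 TPM in Null livers (SD, n = 4 each), and 16.1% of its 31-base stretches recur in other genes' transcripts, so its values are uncertain. It passed without ATF3 1 (log2 change 0.37, limma adjusted p = 0.0329).

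**Figure D3:**
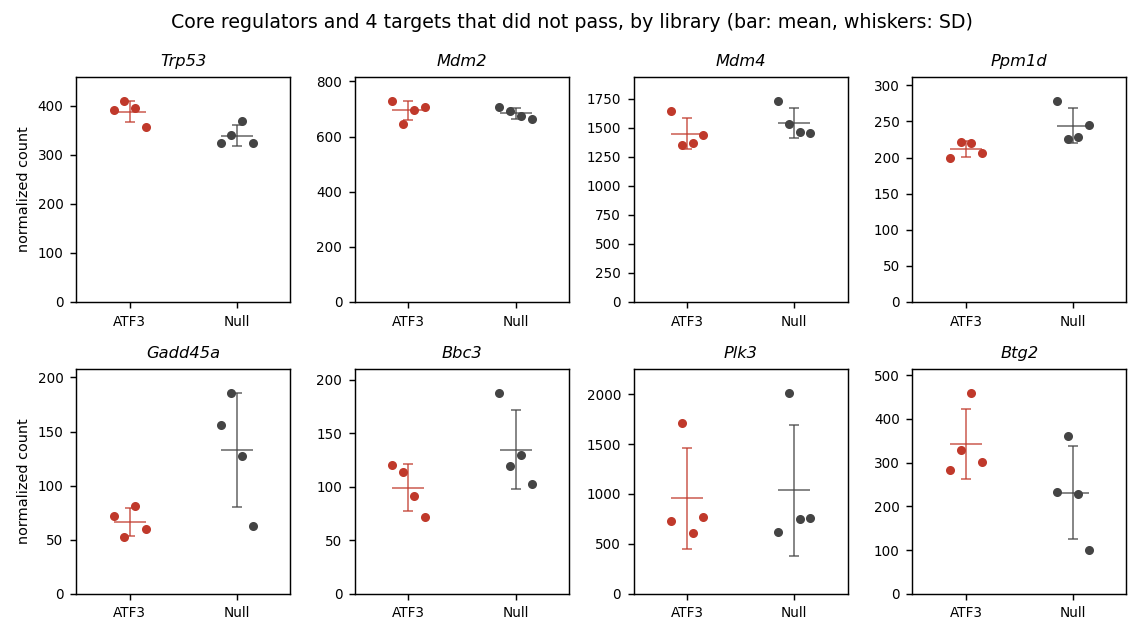
Normalized counts by library of p53, its 3 regulators and 4 targets that did not pass, with ATF3 livers left and Null livers right; points are libraries, bars means and whiskers the SD (n = 4 each), and every axis starts at 0. Mdm2 lies between 647 and 728 in ATF3 livers and between 663 and 706 in Null livers, and 1 Null library of Gadd45a lies among the ATF3 points.

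Among the 5 genes of DNA repair and synthesis, 2 rose (against 11.4% of all genes) and 0 fell (against 9.82%). Polk, the gene of the translesion polymerase kappa, had 299, 312, 273 and 319 normalized counts in ATF3 1 to 4 and 154, 141, 164 and 179.8 in Null 1 to 4, a log2 change of 0.91 (SE 0.11, limma adjusted p = 0.000358). Ddb2, a damage sensor of nucleotide excision repair whose induction by p53 is best known in human cells, had 158, 213, 184 and 229 in ATF3 1 to 4 and 86.3, 84.7, 70.4 and 133 in Null 1 to 4. Null 4 was the highest Null library and still under every ATF3 library, and the log2 change was 1.09 (SE 0.20, limma adjusted p = 0.00378). Acp2, on the opposite strand, covers 23.8% of the exonic bases of Ddb2 and averaged 1208 ± 88.4 in ATF3 livers and 1379 ± 240.0 in Null livers (SD, n = 4 each), a log2 change of -0.18.

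The other nucleotide excision repair genes had negative log2 changes that did not pass. Xpc, which recognizes damaged DNA, had 619.9, 653, 653 and 644 normalized counts in ATF3 1 to 4 and 716, 767, 812 and 690.3 in Null 1 to 4. Every ATF3 library was lower, but the log2 change of -0.21 (SE 0.09) did not pass (limma adjusted p = 0.112). Ercc5, the endonuclease gene XPG, averaged 462 ± 19.1 in ATF3 livers and 530.1 ± 90.2 in Null livers (SD, n = 4 each), and Null 4, at 397, was its lowest library. Without Null 4 both passed as lower (Xpc log2 change -0.25, adjusted p = 0.0466, and Ercc5 -0.31, adjusted p = 0.0205, by limma). Rrm2b, the p53-inducible subunit of ribonucleotide reductase, averaged 139 ± 17.4 in ATF3 livers and 134 ± 14.9 in Null livers (SD, n = 4 each), with a 95% interval of the log2 change of -0.25 to 0.36.

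Of the 3 metabolic genes, 1 rose (against 11.4% of all genes) and 0 fell (against 9.82%). Tigar, whose product lowers fructose-2,6-bisphosphate and so slows glycolysis, had 420.4, 391, 478 and 427 normalized counts in ATF3 1 to 4 and 310.1, 302, 368 and 303 in Null 1 to 4. The log2 change was 0.42 (SE 0.11, limma adjusted p = 0.0203), the smallest among the 12, and the call was lost without ATF3 3, ATF3 4 or Null 2 (adjusted p from 0.0559 to 0.0729). Dcxr, a dicarbonyl and xylulose reductase gene, averaged 1620.1 ± 283 in ATF3 livers and 1239 ± 210.0 in Null livers (SD, n = 4 each), and passed without Null 4 (log2 change 0.49, limma adjusted p = 0.0180). Sesn1, a sestrin gene whose product restrains mTORC1, averaged 430.1 ± 29.5 in ATF3 livers and 403 ± 31.9 in Null livers (SD, n = 4 each), with a 95% interval of the log2 change of -0.13 to 0.32.

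**Figure D4:**
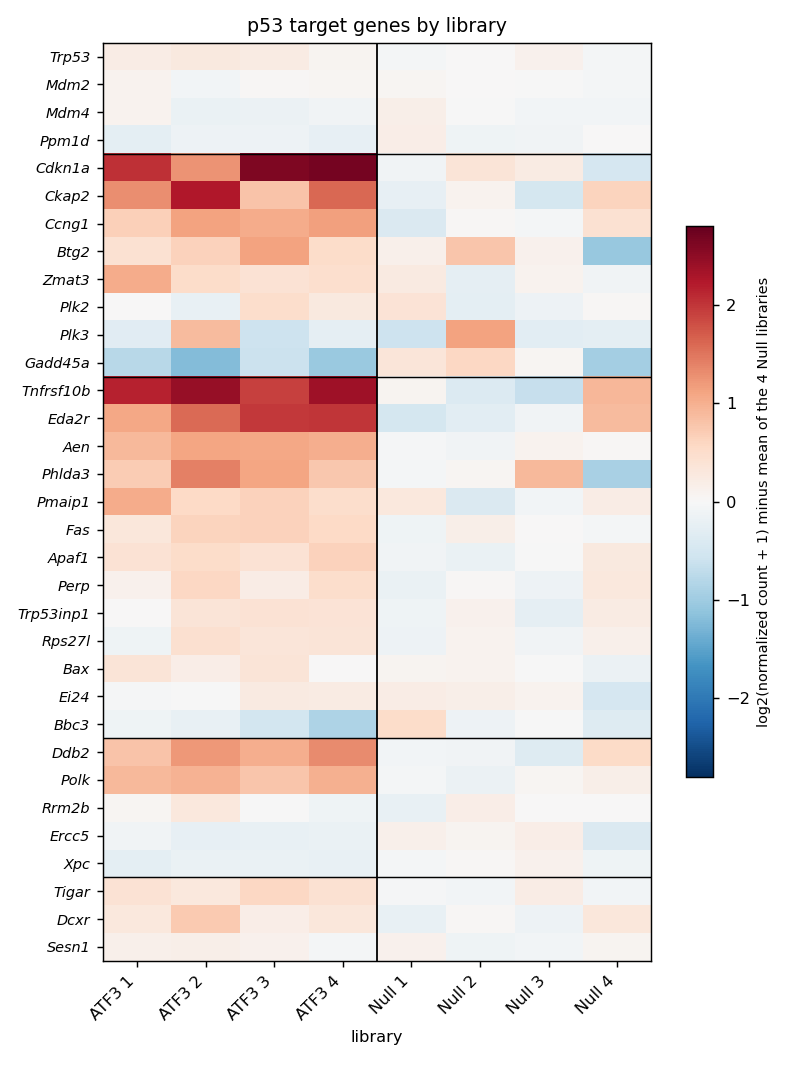
Log2(normalized count + 1) of the 33 genes (rows, by class) in the 8 libraries (columns, ATF3 left), minus the mean of the 4 Null libraries, with red higher and blue lower. Cdkn1a, Tnfrsf10b and Eda2r are red in every ATF3 library, and the Null 4 column differs from the other Null columns in Btg2, Gadd45a, Eda2r, Tnfrsf10b and Ddb2.

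The libraries differed within groups as well. Null 4 was the highest Null library for 7 of the 12 genes that rose (58.3%), against 36.6% of all 1513 genes that rose. Its median deviation from the Null mean over the 12 genes was 0.22 on the log2 scale, against 0.04 over all genes that rose. The ATF3 libraries had median deviations of 0.90 to 1.11 over the 12 genes, and of 0.69 to 0.78 over all genes that rose. ATF3 4 was the highest ATF3 library for 6 of the 12 genes, against 20.5% of all genes that rose. It was the lowest for 0, against 18.3%. ATF3 1 and ATF3 3 were each the lowest for 5 of the 12, against 44.5% and 16.2% of all genes that rose. Without Null 4, 15 members rose and 3 fell, where 14.8% of all genes rose and 13.6% fell. Without Null 2, by contrast, Zmat3, Apaf1 and Tigar lost their calls and no member gained one.

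Markers of other liver cells were summed beside these genes. Kupffer cell and macrophage markers (8 of 8 listed) ranged from 8630 to 12625 normalized counts in ATF3 livers and from 7400.4 to 11604 in Null livers. Endothelial markers (6 of 6) ranged from 8859 to 9345 in ATF3 livers and from 8792 to 10885 in Null livers. Stellate cell markers (7 of 7) ranged from 8851 to 10116 in ATF3 livers and from 9796 to 12707 in Null livers. Cholangiocyte markers (6 of 6) ranged from 891 to 1267 in ATF3 livers and from 881 to 1424 in Null livers, and their member Sox9 fell by 1.89 (limma adjusted p = 0.0243). Lymphocyte markers (7 of 7) ranged from 639.6 to 909 in ATF3 livers and from 528 to 858 in Null livers, and neutrophil markers (4 of 4, with Ly6g listed at 0) from 10.1 to 25.6 in ATF3 livers and from 9.43 to 32.4 in Null livers. Exact two-sided permutation tests over 70 assignments gave adjusted p from 0.400 to 0.771 over 7 lists. The smallest unadjusted p they allow is 0.0286, so a single sum could not pass after adjustment, whatever its size. Null 4 held the highest Null sum of every list but the cholangiocyte one, where it held the lowest. The part of cell makeup in the results was not tested.

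Outside the 33 genes, 3 further lists of the pathway were counted. Of 24 tested regulators upstream of p53, 3 rose (12.5%) and 2 fell, close to the 11.4% and 9.82% of all genes. Without Null 4, 5 fell, where 13.6% of all genes fell, and without ATF3 3 or ATF3 4, 1 fell. The number of all genes that fell also moved when 1 library was left out, as given in the last paragraph. Groups separated downward in 7 of the 24, against 12.6% of all genes, and upward in 4, against 13.7%. The median log2 change of the list was -0.20. Trim24, a ubiquitin ligase gene for p53, averaged 1294 ± 150.1 normalized counts in ATF3 livers and 641 ± 109 in Null livers (SD, n = 4 each; log2 change 1.02, limma adjusted p = 0.000496). The damage-response kinase genes Chek1 and Atr rose by 1.25 and 0.38 (adjusted p = 0.00916 and 0.0171). The genes that fell were Ppp1r13b, by 0.57, which encodes the p53 cofactor ASPP1, and Dyrk2, by 0.54, a p53 kinase gene. Sirt1, a p53 deacetylase gene (log2 change -0.32, limma adjusted p = 0.0666), Npm1, Trp53bp2 and the damage kinase gene Atm did not pass (adjusted p from 0.0666 to 0.0986). The p53 relatives Trp63 and Trp73 and the Mdm2 inhibitor gene Cdkn2a did not meet the filter.

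Of 36 tested further p53 targets, 8 rose (22.2%, against 11.4% of all genes) and 2 fell (against 9.82%), and their median log2 change was 0.13. Gls2, a liver glutaminase gene, had 11521, 13199.9, 13188 and 13115 normalized counts in ATF3 1 to 4 and 5872, 6832, 5589.9 and 7449.6 in Null 1 to 4, a log2 change of 0.99 (SE 0.11, limma adjusted p = 0.000168). Mgmt, which removes alkyl groups from DNA, rose by 0.75. Cgref1, Ephx1 and Gtse1 rose by 1.90, 0.69 and 0.85, while Sulf2, a sulfatase gene, fell by 1.14 and the thiamine transporter gene Slc19a2 fell by 0.34. Aldh4a1, Sco2, Siva1 and Abhd4 came nearest among those that did not pass (log2 changes of 0.31 to 0.72, limma adjusted p from 0.0539 to 0.0761). Between 4 and 8 genes of this list rose when 1 library was left out (4 without ATF3 2, ATF3 4, Null 1 or Null 3). The number of all genes that rose moved as well, as given in the last paragraph.

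The last list held 28 tested cell cycle genes that p53 is known to lower through p21 and the DREAM complex, a repressor of genes of division. Of these, 22 rose (78.6%, against 11.4% of all genes) and 0 fell (against 9.82%), with a median log2 change of 1.26, in the same livers in which Cdkn1a rose. Chek1 stood on both this list and that of upstream regulators. Melk met the filter through the ATF3 libraries alone. The replication helicase gene Mcm2 averaged 353 ± 64.8 normalized counts in ATF3 livers and 87.3 ± 10.3 in Null livers (SD, n = 4 each; log2 change 1.99, limma adjusted p = 1.68e-05), and Mcm3, Mcm4 and Mcm6 rose by 1.31, 1.65 and 1.37. Mcm5, the topoisomerase gene Top2a and the cytokinesis gene Ect2 rose by 1.28, 1.32 and 1.24. The mitotic cyclin gene Ccnb1 had 71.9, 129, 27.9 and 79.8 in ATF3 1 to 4 and 16.9, 26.8, 22.5 and 18.6 in Null 1 to 4, a log2 change of 1.65 (SE 0.40, limma adjusted p = 0.0147). Ccnb1 and Melk were singled out after their values were seen. For Ccnb1, as for Ckap2, ATF3 2 was the highest and ATF3 3 the lowest ATF3 library. That order was not shared by the whole list. Mcm2 had 345, 272, 428 and 367 in ATF3 1 to 4, and Mcm4 had 360, 294, 429 and 465. In both, ATF3 2 was the lowest ATF3 library, as for Cdkn1a. These examples were also picked after their values were seen. Mki67, a marker of dividing cells, had 752, 805, 440.5 and 811 in ATF3 1 to 4 and 329.8, 248, 292 and 329 in Null 1 to 4 (log2 change 1.19, limma adjusted p = 0.00186). Tk1, Cdk1 and Plk1 had log2 changes of 0.51 to 1.44 that did not pass (limma adjusted p from 0.0581 to 0.0649). Which cells of the liver these transcripts came from was not tested.

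**Figure D5:**
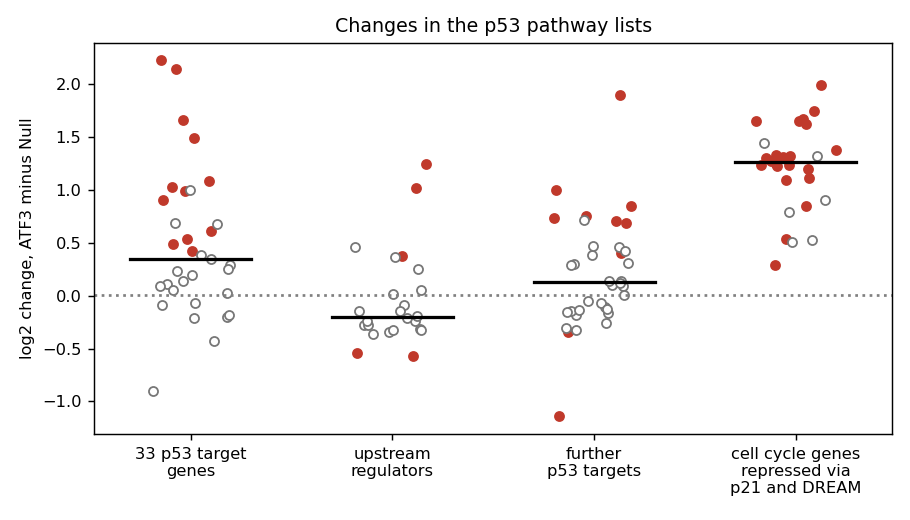
Log2 change (ATF3 minus Null) of each tested gene of the 33 p53 target genes, of upstream regulators (24), of further p53 targets (36) and of cell cycle genes repressed through p21 and DREAM (28); red points passed an adjusted p under 0.05, black lines are medians and the dotted line is the median of all tested genes. The medians are 0.35, -0.20, 0.13 and 1.26.

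Shared sequence limits some values. Of the 31-base stretches in a gene's transcripts, the part that recurred in another gene was 13.6% for Mdm4, 11.1% for Bax, 10.8% for Tnfrsf10b, 10.2% for Ckap2 and 10.1% for Trp53, and at most 7.19% (Rrm2b) for the other members besides Rps27l. The calls also depended on the table: with the deposited TPM, 5 members rose (Cdkn1a, Ckap2, Tnfrsf10b, Eda2r and Phlda3), where 3.31% of all genes rose, and 8 of the 12 calls were lost. In that table Mir6236 alone held 0.308% (Null 4) to 89.4% (Null 1) of a library. With the TPM rescaled by median of ratios, 13 members rose, the 12 above and Pmaip1, where 1533 of all 13281 genes rose.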

How the data were processed

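Per the labels, liver RNA came from a miRNA isolation kit and went into stranded total RNA libraries. Bowtie2 and the mm10 build are named in the submitters' processing notes, and BaseSpace software in the design text. How reads were assigned to genes, and with which annotation, is not stated. The deposited signal is normalized counts, scaled by the authors with DESeq, per the name of their table. These values are not whole, and whole reads could not be recovered. The authors also deposited TPM, in which 26 gene names had turned into dates and were left out.

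limma 3.58.1 in R 4.3.3 (lmFit, eBayes with trend, two-sided) was fitted to log2(normalized count + 1) for each gene reaching 10 in 4 or more libraries, with a term for group and Benjamini-Hochberg adjustment over all 13301 genes. Adding 1 understates changes of low genes. Libraries were numbered by accession within groups, and the numbers pair none. At most 10 genes had identical values in any pair of libraries. The procedure was tested on simulated data with added log2 changes of 1 or more in size, so smaller changes were not covered. Depth was estimated roughly, by dividing each column's sum by its commonest low step. TPM levels were rescaled after removal of Mir6236, to compare levels between genes. Intervals are 95% intervals of the limma fit. Gene positions, exon overlap and shared 31-base stretches come from GENCODE vM21. Figures were drawn with matplotlib 3.10.9 in Python 3.11.15, and tables read with pandas 2.3.3. Every member is described, and from each other list up to 8 called genes and 4 others with the smallest p, of which some are not reported here. The members and lists were chosen with earlier results of these data known.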

Additional observations from a re-analysis of the deposited data

Results flagged for a closer look

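In 5 of 66 sets of 4 libraries (33 genes in each group), 1 library stood apart from the other 3 by more than Dixon's critical value allows, where chance gives about 1 in 20. Plk3 had 1709.8 normalized counts in ATF3 2 and 2011 in Null 2, each the high library of its group. Zmat3 had 462 in ATF3 1, above the other ATF3 libraries, and Trp53inp1 had 2163 in ATF3 1, below them. Tigar had 368 in Null 3, above the other Null libraries.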

How the results depend on the processing

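Across 20 alternatives, 599 of the gene-level results for the 33 members kept direction and side of the threshold, 23 lost the call, 21 gained it and 15 turned direction. Cdkn1a, Tnfrsf10b and Eda2r kept their calls in every alternative in which they were tested, although their log2 changes were 1.09, 0.42 and 0.79 with rescaled TPM, where adding 1 weighs more. Tnfrsf10b and Phlda3 were not tested with at least 10 in all 8 libraries.

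With the deposited TPM, which moved the median change of all genes to 0.68, 5 members rose, 440 genes rose and 76 fell, 1 upstream regulator rose and 0 fell, and 3 further targets rose and 0 fell. Signs turned for Mdm4 (0.74), Ppm1d (0.51), Plk3 (0.78), Bbc3 (0.32), Xpc (0.60) and Ercc5 (0.58), and for the summed cholangiocyte (0.70), endothelial (0.58), stellate (0.39) and neutrophil (0.20) markers. A minimum log2 change of 0.5 left 4 members higher (Cdkn1a, Tnfrsf10b, Eda2r and Aen), 348 genes higher and 264 lower, 1 upstream regulator higher and 0 lower, 2 further targets higher and 0 lower, and 9 cell cycle genes higher. Library weights lost none of the 12 calls and added upward calls for Pmaip1, Perp, Trp53inp1, Rps27l and Dcxr. They also gave 4 lower members (Gadd45a, Bbc3, Xpc and Ercc5), where 2271 of all 13301 genes were higher and 2130 lower. With these weights 7 upstream regulators were lower, and Rrm2b was at -0.0566. Quantile normalization gave 1 lower member (Gadd45a), where 1359 of all 13301 genes fell, and Rrm2b at -4.3e-05. No filter left 5 further targets higher, and no trend left 1 lower.

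With 1 library left out, members ranged from 9 to 15 higher and 0 to 3 lower, all genes from 1040 to 1965 higher and 851 to 1812 lower, upstream regulators from 2 to 3 higher and 1 to 5 lower, further targets from 4 to 8 higher and 1 to 3 lower, and cell cycle genes from 15 to 25 higher. Mdm2 ranged from -0.0011 to 0.0558, Plk3 from -0.39 to 0.31, Rrm2b from -0.0272 to 0.11, Ei24 from -0.0493 to 0.18 and the neutrophil sum from -0.40 to 0.26. The cause of these shifts was not tested. No paired analysis was possible because the labels give the groups no shared replicate numbers.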
